A study of Mus musculus with 15 samples.

Results

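The genes described here encode the subunits of respiratory complexes I, III and IV and of ATP synthase (complex V) that are carried on the nuclear chromosomes. They were taken by symbol from the deposited mouse table: symbols starting Ndufa, Ndufb, Ndufs, Ndufv, Ndufc, Uqcr, Cox4, Cox5, Cox6, Cox7, Cox8 or Atp5, without Ndufaf symbols and symbols holding -ps. This gave 83 of 38172 symbols, 41 for complex I, 8 for complex III, 17 for complex IV and 17 for complex V. Of these, 81 reached at least 1 TPM (transcript abundance scaled to a fixed library total) in at least 3 of 15 libraries and were tested (40, 8, 16 and 17 by complex). Cox7b2 and Ndufb11b lay below that level. TPM here is per gene span with introns, and the span of Cox7b2 is 105382 bases. Ndufa4 and Ndufa4l2 are counted with complex I by their symbols, although the Ndufa4 protein is now known as a complex IV subunit. Ndufs6b, Ndufb4c, Ndufa11b and Cox6c2 are annotated as processed pseudogenes, whose reads cannot be told apart with certainty from those of their parent genes. The symbol Ndufb1 of the table was matched to a locus that the annotation names Ndufb1-ps and classes as a noncoding RNA (bidirectional promoter lncRNA). The X-linked and mitochondrially encoded subunits are not analysed here.

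The respiratory chain sits in the inner mitochondrial membrane. Complex I takes electrons from NADH, complex III passes them on to cytochrome c, complex IV hands them to oxygen, and ATP synthase uses the proton gradient they build. Most subunits are nuclear genes, some with alternative forms for heart, muscle or low oxygen, and gliomas vary in how far they rely on the chain or on glycolysis.

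The study asked how an antibody against PD1, a receptor that restrains T cells, and vorinostat, a histone deacetylase inhibitor, act alone and together on IDH-mutant brain tumours in mice. All 15 samples carried the same tumour model: chicken DF-1 cells making R132H-mutant IDH and DF-1 cells making PDGFB, mixed 1:1, were injected into the brains of TVA mice (nestin-TVA, written nesin-TVA in the design text), in which TVA, the virus receptor, is driven by the nestin promoter. MRI was done on day 28, treatment lasted 9 days and tumours were collected on day 37. Controls (n = 3) received placebo, the anti-PD1 group (n = 4) 1 mg per injection of 100 µl, the vorinostat group (n = 4) 1 mg per daily injection of 100 µl, and the combination group (n = 4) both agents. The labels give no age, and they do not say that replicates are separate animals, so p-values measure the spread between these samples. The control received the vehicle of vorinostat only.

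Recovered reads ranged from 80.1 M to 159.4 M per library, and the 83 genes held between 0.995% (vorinostat library 3) and 1.244% (combination library 2) of the TPM. The labels call the tissue brain and the cells low-grade glioma cells, and the libraries also held markers of neurons and of other brain cells. In such bulk RNA fewer cells of a type and less RNA per cell cannot be told apart. Markers of neurons averaged 5.11 on the log2(TPM + 1) scale in controls, 6.10 with anti-PD1, 5.30 with vorinostat and 5.32 with the combination. Markers of the cell cycle averaged 5.24, 3.82, 4.98 and 4.51, and the summed TPM of glioma and progenitor markers ranged from 4666 to 6717 in controls, from 1510.0 to 5806 with anti-PD1, from 3778 to 11510.0 with vorinostat and from 1507 to 6850.0 with the combination. Library 2 of anti-PD1 stood apart, with 47.2% of its TPM in protein-coding genes against 51.5% to 62.5% in the others.

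The promoter windows of 6 members are shown. Cox8a, Cox5b, Cox6a1 and Atp5d were higher in every anti-PD1 library than in every control, and Ndufc2 and Atp5k were lower. These 6 are a selection: 5 members stood above control without overlap and 31 below, against 8.26% and 20.5% of all symbols. Cox5b and Cox6a1 passed the test in no comparison with control. Each window holds the 250 bases before the RefSeq gene start on build GRCm38.p6, read along the gene. Capitals mark matches, on either strand, to motifs of factors known to act on respiratory genes: NRF1 (GCGC, any base, then TGCGC) and the ETS family, which includes GABP (CCGGAAG). No match overlapped another.
Cox8a, chr19:7217617-7217866, minus strand: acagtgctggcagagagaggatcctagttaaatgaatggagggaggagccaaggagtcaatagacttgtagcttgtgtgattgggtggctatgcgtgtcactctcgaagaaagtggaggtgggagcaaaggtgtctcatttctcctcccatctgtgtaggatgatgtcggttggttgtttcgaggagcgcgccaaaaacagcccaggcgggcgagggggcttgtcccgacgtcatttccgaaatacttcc
Cox5b, chr1:36691237-36691486, plus strand: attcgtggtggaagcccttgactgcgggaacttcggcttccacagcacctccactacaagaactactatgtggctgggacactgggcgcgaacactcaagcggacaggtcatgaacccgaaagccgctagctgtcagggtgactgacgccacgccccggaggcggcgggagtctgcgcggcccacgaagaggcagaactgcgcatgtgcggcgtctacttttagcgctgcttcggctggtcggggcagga
Cox6a1, chr5:115348959-115349208, minus strand: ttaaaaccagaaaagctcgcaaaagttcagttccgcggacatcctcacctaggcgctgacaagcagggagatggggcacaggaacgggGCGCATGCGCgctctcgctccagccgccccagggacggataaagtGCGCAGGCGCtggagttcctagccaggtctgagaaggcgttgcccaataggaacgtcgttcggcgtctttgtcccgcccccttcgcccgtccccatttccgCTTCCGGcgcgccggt
Atp5d, chr10:80142065-80142314, plus strand: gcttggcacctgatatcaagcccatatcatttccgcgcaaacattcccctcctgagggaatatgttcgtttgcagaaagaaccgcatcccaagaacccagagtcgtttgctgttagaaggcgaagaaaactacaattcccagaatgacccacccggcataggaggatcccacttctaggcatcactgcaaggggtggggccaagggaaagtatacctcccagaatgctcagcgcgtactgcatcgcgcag
Ndufc2, chr7:97399753-97400002, plus strand: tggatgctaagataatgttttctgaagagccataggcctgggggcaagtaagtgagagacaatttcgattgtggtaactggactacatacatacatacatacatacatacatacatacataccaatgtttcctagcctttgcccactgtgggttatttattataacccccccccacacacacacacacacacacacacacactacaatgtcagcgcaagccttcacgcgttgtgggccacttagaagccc
Atp5k, chr5:108434400-108434649, minus strand: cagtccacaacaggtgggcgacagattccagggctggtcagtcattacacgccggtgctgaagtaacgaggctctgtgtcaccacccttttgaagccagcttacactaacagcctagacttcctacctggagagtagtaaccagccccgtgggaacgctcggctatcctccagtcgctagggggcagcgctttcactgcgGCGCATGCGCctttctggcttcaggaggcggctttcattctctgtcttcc

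Cox6a1 held 2 NRF1 matches and 1 ETS match, Atp5k held 1 NRF1 match, and the other 4 windows held neither. Over all members with a window, NRF1 letters stood in 17.4% of 69 windows (64 genes), against 7.3% of 13839 windows of tested genes and 3.7% of 32851 windows in the RefSeq table. The ETS letters stood in 15.9%, 12.3% and 6.9%. For the cyclic AMP response element TGACGTCA the shares were 5.8%, 2.5% and 1.5%, and for YY1, AANATGGCG, 2.9%, 1.9% and 1.1%. A match is a run of letters, not a site shown to be bound, and the windows with matches are found on both sides of the comparison with control.

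Levels between genes were compared per exon length, as exon RPKM (reads per kb of exon and per M recovered reads), averaged over 15 libraries. Exon length counts the exon bases of all annotated transcripts of a gene, which can far exceed the length of a transcript. It is 4237 bases for Atp5b and 1550 for Cox4i1, whose longest coding transcripts have 1916 and 765. For Cox8a the lengths are 619 and 550. The order of genes and the medians depend on this choice, and levels per transcript length were not computed. The highest mean was that of Cox8a, a small subunit of complex IV, at 258.2 ± 80.9 (SD), pooled over groups that differ for this gene. In the 3 controls Cox8a stood sixth at 156.7 ± 11.2, and Atp5a1 was highest at 259.6 ± 14.1. Over all libraries the catalytic ATP synthase subunits Atp5a1 (alpha) and Atp5b (beta) stood at 252.9 and 235.5, and then Cox4i1 at 223.9, Cox6b1 at 223.4 and Cox6a1 at 203.1, all of complex IV. The ranges of these 6 over the libraries overlapped each other. The highest members of complexes III and I were Uqcrh, the hinge protein, at 119.5 and Ndufc2, an accessory subunit of the membrane arm, at 116.3. Medians by complex were 35.9 for I, 71.9 for III, 44.2 for IV and 60.9 for V. The lowest member was the pseudogene Ndufa11b of complex I at 0.205, and the next lowest were forms of complex IV subunits.

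**Figure D1:**
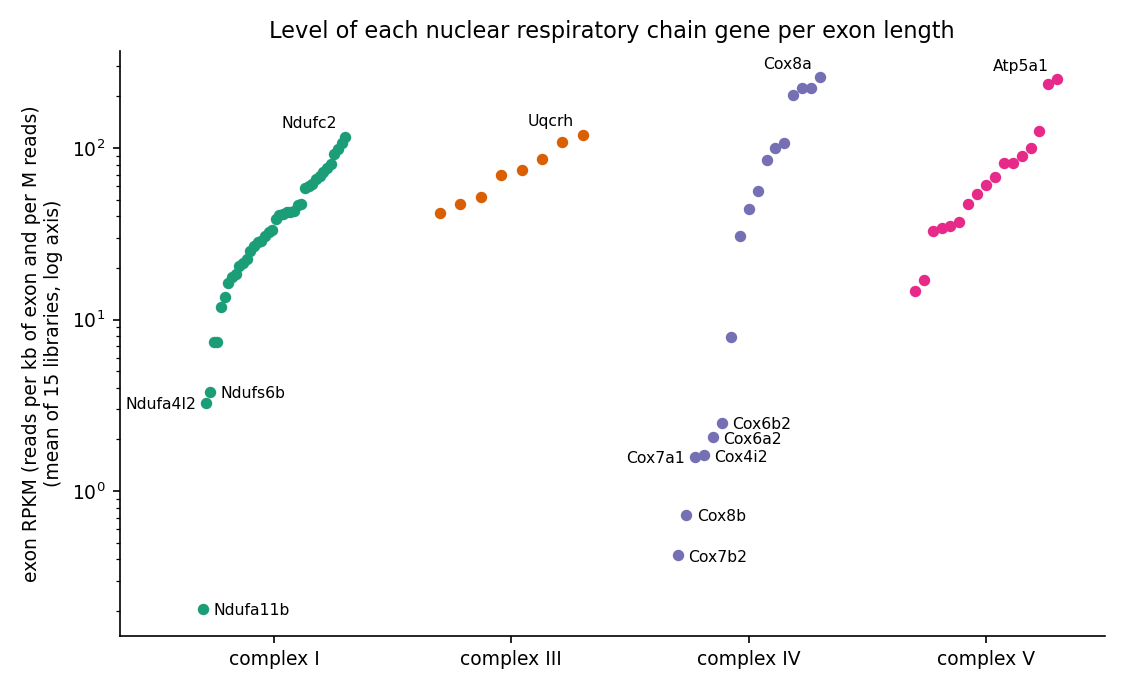
Level of 82 members with an annotated exon length, in exon RPKM on a log axis, as the mean of 15 libraries. Exon length counts the exon bases of all annotated transcripts, and the order of genes depends on it. Points are genes, ordered within each complex, with the highest gene of each complex and genes below 5 named; complex IV spans from 0.42 (Cox7b2) to 258.2 (Cox8a).

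Complex IV has alternative subunits, and the forms known from other tissues were low in all groups. Cox4i2, the form of Cox4 known from lung and low oxygen, stood at an exon RPKM of 1.62 against 223.9 for Cox4i1. The muscle forms Cox6a2, Cox7a1 and Cox8b stood at 2.06, 1.58 and 0.724, against 203.1 for Cox6a1, 106.9 for Cox7a2 and 258.2 for Cox8a. Cox6b2, a form known from testis, stood at 2.51 against 223.4 for Cox6b1. Cox8b was listed at 0 in 5 of 15 libraries and reached 5.32 TPM in vorinostat library 4 and 5.01 in anti-PD1 library 2. The latter library also held the most Acta1, a skeletal muscle actin, at 66.3 TPM, and the summed TPM of 8 muscle markers ranged from 1.76 to 11.0 in controls and from 10.3 to 83.1 with anti-PD1. The part of muscle RNA in the levels of these forms was not tested.

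With anti-PD1 the members of complex IV stood on both sides of control, while 34 of 40 changes in complex I and 15 of 17 in complex V were negative. The median of all tested symbols was itself negative, and the share of negative changes over all symbols was not computed. By limma with Benjamini-Hochberg adjustment over 19390 symbols, 2 of 81 members rose, Cox8a and Atp5d, and 9 fell: Ndufc2, Ndufb4c, Ndufb1, Ndufb7 and Ndufv2 of complex I, Uqcrb of complex III, and Atp5k, Atp5c1 and Atp5pb of complex V. Those are 11 of 81 members, and over all tested symbols 5.29% were called (1.77% higher and 3.52% lower). The median change of the members was -0.13 on the log2(TPM + 1) scale, and that of all tested symbols -0.14. By complex the medians were -0.14 for I, -0.10 for III, 0.14 for IV and -0.22 for V. In complex IV 9 changes were positive and 7 negative. The positive ones include the low forms Cox4i2, Cox6a2, Cox7a1 and Cox8b, and the negative ones the low form Cox6b2. A complex IV median without low forms was not computed. The groups did not overlap for 36 members, 5 above and 31 below control, against 8.26% and 20.5% of all symbols.

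These calls depend on the scale and on single libraries. Median-of-ratios scaling moves the median of all symbols by over 0.1, from -0.14 to 0.01. On that scale Cox8a, Atp5d and Ndufc2 are called, the member median is 0.05, 46 of 81 changes are positive, and 9 members lie above and 1 below control without overlap, against 13.7% and 14.3% of all symbols. After that scaling 18 of 40 changes in complex I and 9 of 17 in complex V are negative. In complex IV 11 of 16 are positive. The medians are 0.03 for I, 0.08 for III, 0.33 for IV and -0.04 for V, beside 0.01 for all symbols. The share of calls that are higher also turns, from 344 of 1026 to 520 of 839 symbols. Without control 1, 2 or 3 no member is called, and over all 19390 symbols 0, 2 and 11 are. Without anti-PD1 library 2 no member and 72 symbols are called, and without anti-PD1 library 3 there are 30 members and 4982 symbols.

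**Figure D2:**
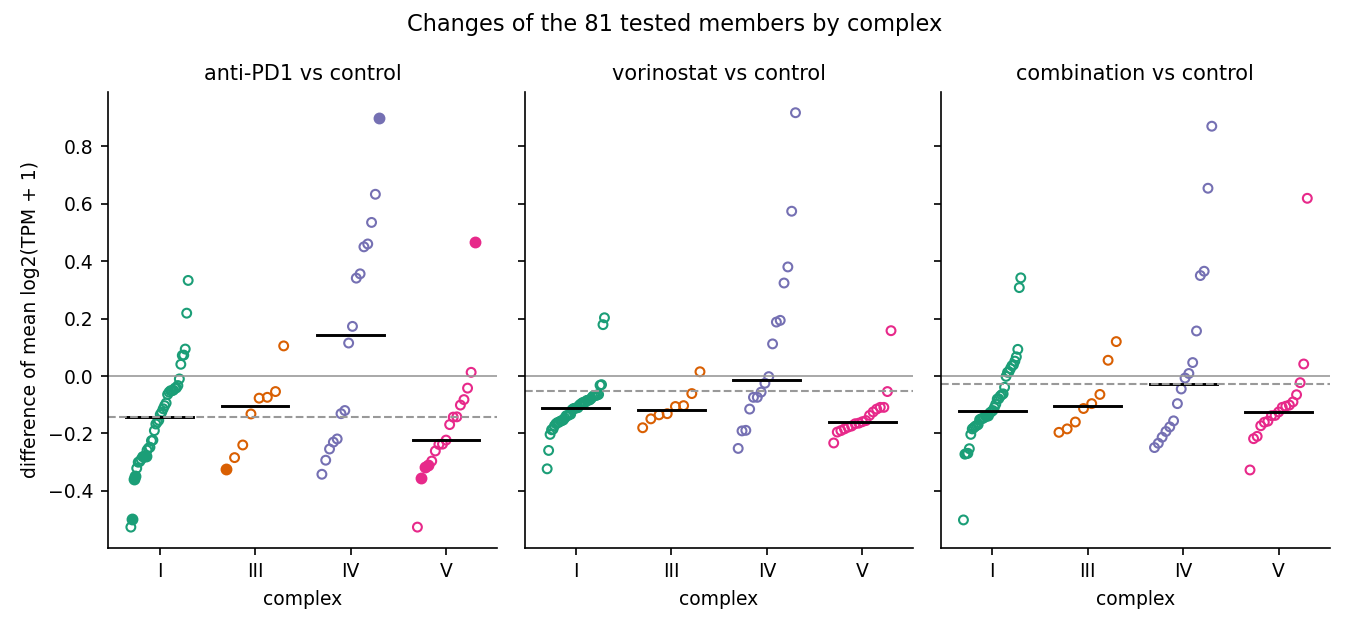
Difference of mean log2(TPM + 1) from control for the 81 tested members, by complex, with anti-PD1 (n = 4), vorinostat (n = 4) and the combination (n = 4) against control (n = 3). Filled points have a limma adjusted p under 0.05, black bars are medians by complex, the dashed line is the median of all tested symbols; the 11 filled points are all in the anti-PD1 panel.

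Cox8a lies in chr19:7215153-7217616 (minus strand, GENCODE vM21). Its control libraries had 298, 336 and 344 TPM, and the anti-PD1 libraries 477, 725, 669 and 591. The vorinostat libraries had 616, 408, 412 and 536 TPM, and the combination libraries 540, 813, 566 and 508. All 12 treated libraries stood above all 3 controls, while the 3 treated groups overlapped each other. The change with anti-PD1 was 0.90 ± 0.20 (SE; limma adjusted p = 0.0326). With vorinostat it was 0.57 ± 0.20 (limma adjusted p = 1.0) and with the combination 0.87 ± 0.20 (limma adjusted p = 0.218), neither past the threshold, and the 3 comparisons share their controls. With the mean of the neuron markers in the model the change with anti-PD1 was 0.60 (limma adjusted p = 0.242).

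Atp5d encodes the delta subunit in the central stalk of ATP synthase and lies in chr10:80138632-80145818. Its controls had 89.0, 94.4 and 89.9 TPM, the anti-PD1 libraries 104, 134, 146 and 124, the vorinostat libraries 116, 97.6, 96.5 and 98.1, and the combination libraries 133, 162, 138 and 130.5. Again no treated library fell into the control range. Atp5d rose with anti-PD1 by 0.47 ± 0.12 (limma adjusted p = 0.0453), and its changes were 0.16 ± 0.12 with vorinostat (limma adjusted p = 1.0) and 0.62 ± 0.12 with the combination (limma adjusted p = 0.135). With the neuron covariate the anti-PD1 change was 0.40 (limma adjusted p = 0.254).

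Cox5b and Cox6a1, small subunits of complex IV, did not pass the test in any comparison with control. Cox5b had 256, 216 and 255 TPM in controls, 309, 383, 341 and 296 with anti-PD1, 359, 257, 271 and 337 with vorinostat, and 366, 468, 374 and 328 with the combination. Its lowest treated library was just above its highest control, and the changes were 0.45, 0.32 and 0.65 (limma adjusted p = 0.0736, 1.0 and 0.239). Cox6a1 averaged 282 ± 5.08 TPM (SD, n = 3) in controls, 390.0 ± 44.3 with anti-PD1 (n = 4), 325 ± 45.4 with vorinostat (n = 4) and 366 ± 50.7 with the combination (n = 4). Only vorinostat overlapped control for Cox6a1.

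Other small subunits of the same complex were lower. Cox7c had 513, 484 and 525 TPM in controls, 352, 406, 435 and 411 with anti-PD1, 455, 394, 411 and 445 with vorinostat, and 403, 453, 459 and 411 with the combination. Its changes of -0.34, -0.25 and -0.23 did not pass (limma adjusted p = 0.0546, 1.0 and 0.785), although no treated library reached the control range. Cox6b1 had changes of -0.23, -0.19 and -0.19 with the groups also apart, and Cox4i1, a subunit that joins early in assembly, had 0.17, -0.06 and -0.05 with overlap in each. Cox5a, which joins early with Cox4i1, had 0.12, -0.07 and 0.35, and only the combination stood apart from control. Cox7a2 had -0.13, -0.12 and -0.16, and Cox7a2l, which helps join complexes III and IV, had -0.22, -0.07 and -0.10, all without passing. On the median-of-ratios scale Cox7c and Cox6b1 overlapped control with anti-PD1 and with vorinostat.

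**Figure D3:**
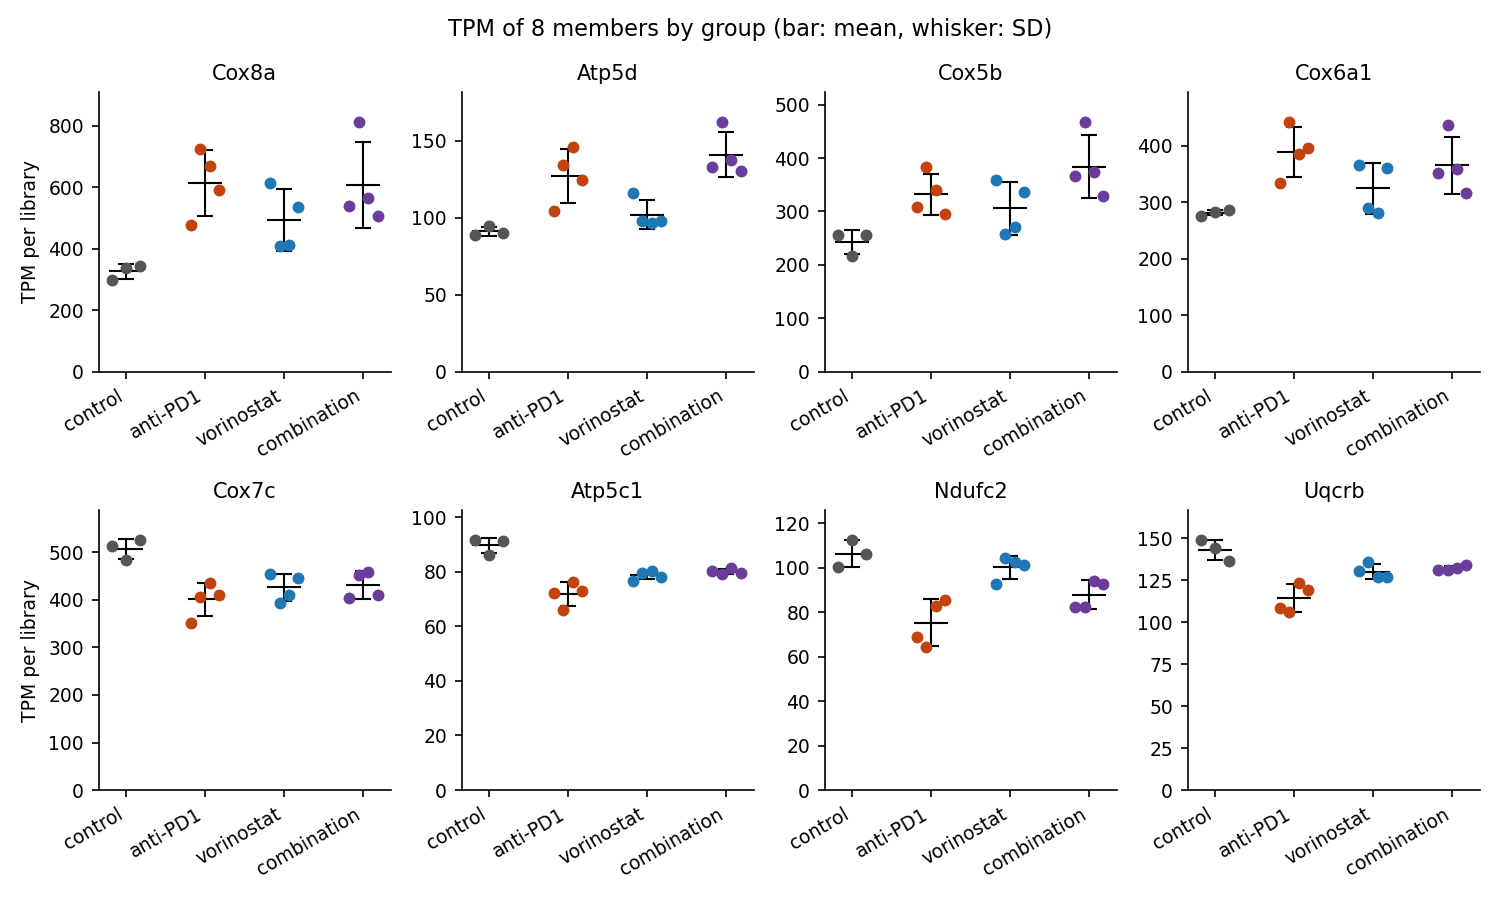
TPM per library of 8 members in control (n = 3), anti-PD1, vorinostat and combination (n = 4 each) samples, with bars for the mean and whiskers for the SD. The upper 4 genes stand mostly above control in treated groups, with Cox8a at 298 to 344 TPM in controls and 408 to 813 in treated libraries, and the lower 4 stand mostly below.

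Ratios of members within a library do not depend on scaling between libraries, and the pairs were chosen after their values were seen, so they are given with no test. The ratio of Cox8a to Cox7c TPM was 0.582, 0.695 and 0.656 in controls. It was 1.36, 1.79, 1.54 and 1.44 with anti-PD1, 1.35, 1.04, 1.00 and 1.20 with vorinostat, and 1.34, 1.79, 1.24 and 1.24 with the combination. Every treated library was above 1 and every control below it. The ratio of Cox8a to Cox4i1 averaged 0.717 ± 0.111 (SD, n = 3) in controls and 1.19 ± 0.160, 1.10 ± 0.098 and 1.35 ± 0.150 (n = 4 each) in the treated groups. The ratio of Atp5d to Atp5c1, both in the central stalk of ATP synthase, averaged 1.02 ± 0.067 in controls, 1.77 ± 0.257 with anti-PD1, 1.30 ± 0.143 with vorinostat and 1.76 ± 0.194 with the combination, again without overlap with control. A ratio shows unequal change, not which of its genes changed.

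**Figure D4:**
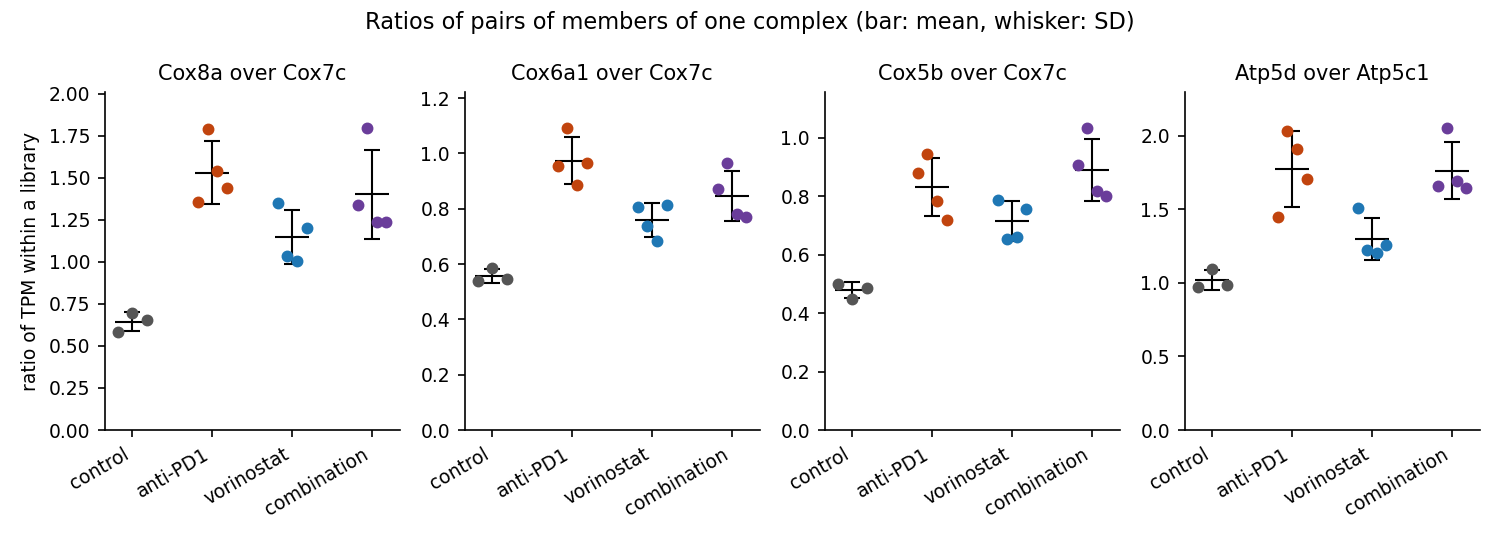
Ratio of the TPM of pairs of members of one complex in each library, by group (control n = 3, others n = 4), with bars for the mean and whiskers for the SD. In all 4 pairs the controls lie below all 12 treated libraries, as for Cox8a over Cox7c, 0.582 to 0.695 against 1.00 to 1.79.

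Base composition was compared with these changes. Transcripts of Cox8a, Atp5d and Cox6a1 have 58.6%, 59.3% and 58.8% GC, against a median of 51.7% for 76 protein-coding members, while Cox5b has 49.0% and Cox7c 38.4%. Ndufb7, which fell with anti-PD1, has 59.7%. Atp5g2, the highest of these members at 63.4%, averaged 113.1 TPM in controls and 80.7 with anti-PD1. Across those members Spearman's rho between GC and the change was 0.23 with anti-PD1, 0.48 with vorinostat and 0.27 with the combination. Across 12706 protein-coding genes it was 0.23, 0.25 and 0.26. Genes share libraries and are not independent replicates, and the part of base composition in the result was not tested.

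In complex I the 5 called members all fell with anti-PD1. Ndufc2 (chr7:97400003-97407802) had 100.2, 112 and 106 TPM in controls, 68.8, 64.2, 82.7 and 85.7 with anti-PD1, 92.6, 104, 103 and 101 with vorinostat, and 82.6, 82.3, 94.2 and 92.7 with the combination. Anti-PD1 and combination libraries were below all controls, and vorinostat overlapped them. The fall was -0.50 ± 0.11 (limma adjusted p = 0.0326), against changes of -0.09 with vorinostat and -0.27 with the combination that did not pass (limma adjusted p = 1.0 and 0.737). Ndufb7, an accessory subunit of the membrane arm, fell by 0.28 (limma adjusted p = 0.0475), Ndufb1, whose matched locus is annotated as noncoding, by 0.35 (limma adjusted p = 0.0313), the pseudogene Ndufb4c by 0.36 (limma adjusted p = 0.0387), and Ndufv2, an iron-sulfur core subunit, by 0.28 (limma adjusted p = 0.0423). Of Ndufb1, 12.7% of the exon bases also belong to Cpsf2 on the other strand, which the unstranded kit cannot separate. The same holds for 8.2% of the exon bases of Atp5pb (Wdr77), 5.7% of Uqcrb (Gm10767) and 3.5% of Atp5d (Cbarp).

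Other core subunits of complex I did not pass in any comparison with control, among them Ndufs1, Ndufs3, Ndufs7 and Ndufs8, which carry electrons or lie near the ubiquinone site, and Ndufv1, which binds NADH. With anti-PD1 the changes of these 5 ranged from -0.19 (Ndufs1) to 0.07 (Ndufv1). Core subunits of complex III were similar in size of change: Uqcrfs1, the Rieske iron-sulfur protein, had -0.08, Uqcrc1 0.11 and Uqcrc2 -0.07, none past the threshold. Uqcrb, which helps bind ubiquinone, had 149, 144 and 136 TPM in controls and 108, 106, 124 and 119 with anti-PD1. It was lower in all 4 libraries and fell by 0.32 (limma adjusted p = 0.0388).

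In ATP synthase the catalytic subunits did not pass. Atp5a1 had a change of -0.08 ± 0.09 and Atp5b of -0.14 ± 0.09 with anti-PD1 (limma adjusted p = 0.501 and 0.269). Atp5c1, the gamma subunit, had 91.4, 86.3 and 91.1 TPM in controls, 72.1, 66.0, 76.2 and 72.9 with anti-PD1, 76.7, 79.7, 80.3 and 78.2 with vorinostat, and 80.3, 79.1, 81.3 and 79.3 with the combination. All treated libraries were below all controls, and the anti-PD1 libraries were below the other treated ones. Atp5c1 fell with anti-PD1 by 0.32 ± 0.07 (limma adjusted p = 0.035), and its changes of -0.18 and -0.16 in the other groups did not pass (limma adjusted p = 1.0 and 0.828). Atp5pb of the peripheral stalk fell by 0.31 and Atp5k, a small membrane subunit, by 0.35 with anti-PD1 (limma adjusted p = 0.0387 and 0.0424). On the median-of-ratios scale Ndufb1, Ndufb7, Ndufb4c, Ndufv2, Uqcrb, Atp5c1, Atp5pb and Atp5k are not called.

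Vorinostat alone called 0 of 81 members by limma, beside 0.00516% of all symbols. At an unadjusted p under 0.05 there were 14 members, beside 2.52% of symbols, and voom on recovered reads also called 0. The median change was -0.11, against -0.05 over all symbols. No overlap with control was seen for 3 members above (Cox8a, Cox5b and Atp5d) and 23 below, against 1.34% and 3.12% of symbols. On the median-of-ratios scale 3 were above (Cox8a, Atp5d and Ndufa4l2, without Cox5b) and 4 below (Atp5c1, Atp5l, Atp5pb and Ndufv2), against 2.04% and 1.63%. With the smallest p, still above the threshold, were Cox8a, Cox4i2 and Cox5b among positive changes and Atp5pb (-0.23), Ndufa12 (-0.26) and Atp5c1 among negative ones. Members vary together within a library, so these counts are not counts of independent genes.

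The combination also called 0 of 81 members against control by limma, beside 0.0206% of symbols. There were 21 at an unadjusted p under 0.05, beside 5.76%, and 0 by voom. The median was -0.11 against -0.03. Cox8a, Cox5b, Cox6a1, Cox5a, Atp5d and Ndufab1 stood above control without overlap and 26 members below, against 3.56% and 4.08% of symbols. On the median-of-ratios scale the same 6 were above and 13 were below, against 4.26% and 3.42%. Among negative changes the smallest p were those of Atp5k (-0.33), Ndufa4 (-0.27) and Ndufs6b (-0.50), none past the threshold.

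Between treated groups 0 members passed in limma. For the combination against anti-PD1 the called share of all symbols was 0.0155%, and 12 members had an unadjusted p under 0.05, beside 23.5%. For the combination against vorinostat the share was 0.0103%, with 7 members beside 4.81%, and for anti-PD1 against vorinostat 0.00516%, with 11 beside 24.7%. Voom called 0 members in each. The groups did not overlap for 7 members above and 1 below in the combination against anti-PD1 (4.95% and 1.68% of symbols), for 7 above and 0 below in the combination against vorinostat (2.32% and 0.825%), and for 0 above and 9 below in anti-PD1 against vorinostat (3.95% and 5.33%). Of members that did not pass, Ndufa4l2, a relative of Ndufa4 known to be induced by low oxygen, had 11.8, 10.1, 9.76 and 11.1 TPM with anti-PD1 and 13.5, 16.7, 16.2 and 15.9 with vorinostat. The 2 groups did not overlap, and the change was -0.50 ± 0.11 (limma adjusted p = 0.0754). Atp5d, Cox5a and Ndufab1, the acyl carrier protein of complex I, were higher in the combination than with vorinostat by 0.46, 0.42 and 0.48 without overlap (limma adjusted p = 0.467, 0.485 and 0.516). The negative changes of smallest p in that comparison were Cox4i2 (-0.33), Atp5k (-0.17) and Ndufc2 (-0.19). Against anti-PD1 the combination had Ndufa4l2 at 0.34, Ndufab1 at 0.38 and Uqcrb at 0.21, and Cox6a2 at -0.53, Cox4i2 at -0.29 and Ndufb9 at -0.22. Between anti-PD1 and vorinostat Atp5d had 0.31, Ndufb9 0.30 and Cox6a1 0.27, and Ndufc2 had -0.42 and Ndufb1 -0.21. None of these passed the threshold.

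The interaction asks whether the change with both agents differs from the sum of the single changes. It called 0 members by limma, beside 0.0103% of symbols, with 20 at an unadjusted p under 0.05, beside 16.4%, and 0 by voom. The largest positive estimates among the smallest p were Atp5pb (0.41), Uqcrb (0.35) and Atp5c1 (0.34), and the negative ones Cox4i2 (-0.67), Cox8a (-0.60) and Cox6a2 (-0.71), with limma adjusted p from 0.231 to 0.314. The median of the members was 0.17 and that of all symbols 0.18, and on the median-of-ratios scale the member median was -0.06.

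**Figure D5:**
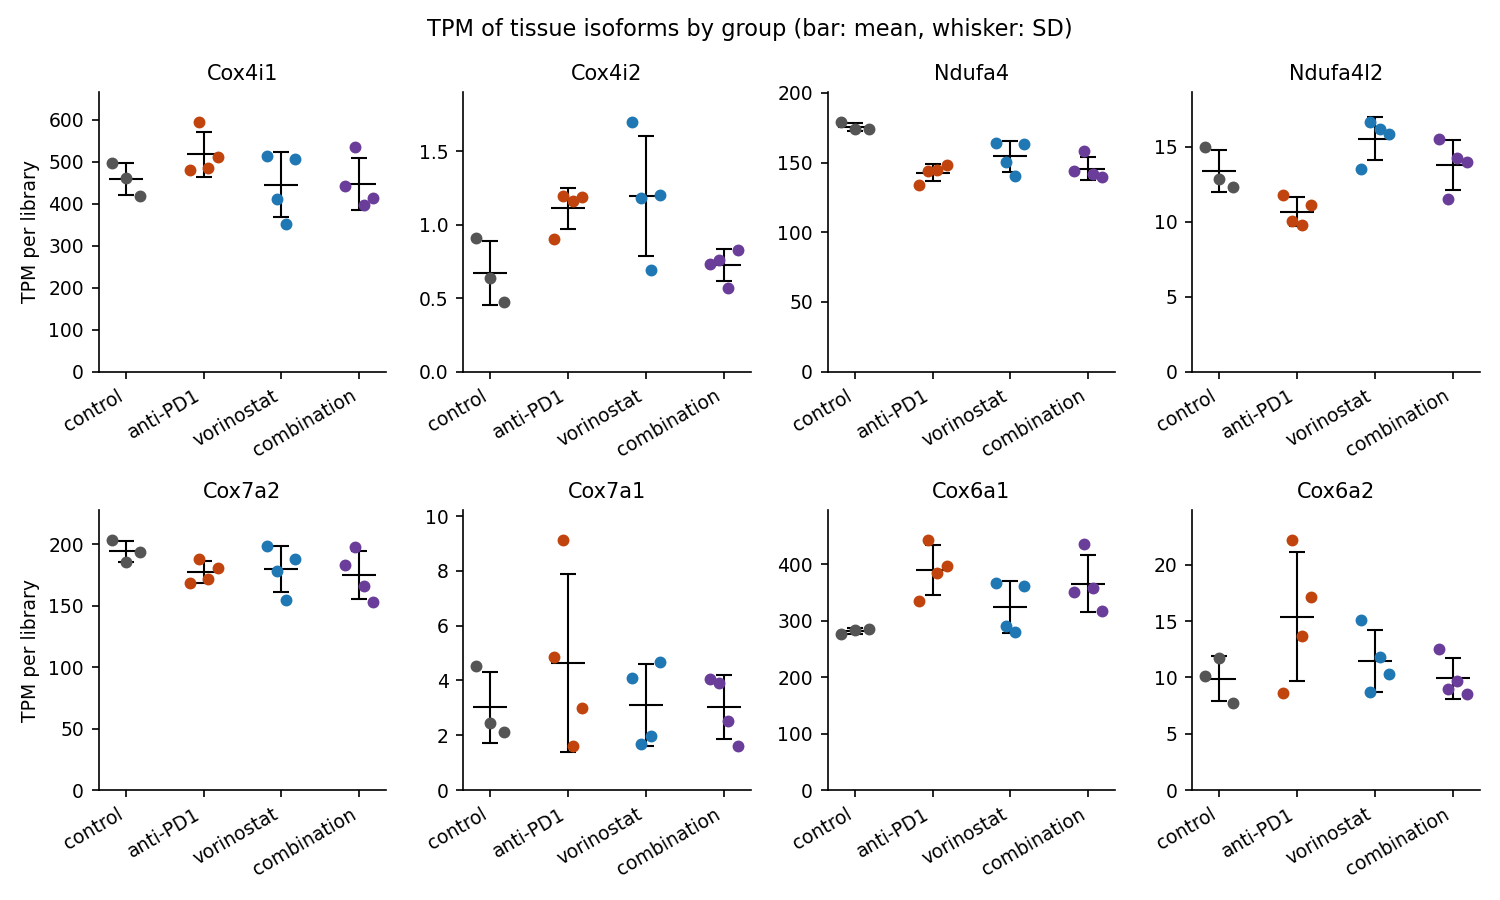
TPM per library of alternative subunit forms by group (control n = 3, others n = 4), with bars for the mean and whiskers for the SD. The common form Cox4i1 lies between 351 and 595 TPM. Cox4i2 lies between 0.475 and 1.70 TPM and overlaps between control and each treated group. With anti-PD1 the overlap is narrow, 0.9059 TPM in library 1 against 0.9071 in control 1. On the median-of-ratios scale Cox4i2 lies above control with anti-PD1 without overlap. TPM here is per gene span with introns, so panels compare groups within a gene and not genes with each other.

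The other genes of the pathway that passed all fell. Over all tested symbols 3.52% were called lower with anti-PD1 and 1.77% higher. These lists were not read on the median-of-ratios scale. Against control with anti-PD1, 1 of 6 complex II and cytochrome c genes fell (Sdhc, a membrane anchor of complex II, by 0.41; limma adjusted p = 0.0314), as did 1 of 40 assembly factors (Bcs1l, which inserts the Rieske protein into complex III, by 0.52; limma adjusted p = 0.0431) and 6 of 77 mitochondrial ribosomal proteins (such as Mrpl18 by 0.42; limma adjusted p = 0.029). None of 11 biogenesis regulators, 14 pyruvate dehydrogenase and citric acid cycle genes, 16 glycolysis genes or 9 hypoxia response genes passed. Their median changes were -0.24, -0.09, 0.26 and 0.35, beside -0.14 for all symbols. With vorinostat and with the combination 0 genes of these 7 lists passed.

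Some markers of other cells differed between the same groups. With anti-PD1, 3 of 16 neuron markers rose, among them Gad1 by 1.46 and Grin1 by 0.99 (limma adjusted p = 0.0267 and 0.0479). Of 4 tested T cell markers 1 rose, Cd4 by 1.64 (limma adjusted p = 0.0459). No tested marker of glioma and progenitor cells, pericytes, endothelium, astrocytes, oligodendrocytes, macrophages and microglia, muscle or erythrocytes passed with anti-PD1. The medians of these lists ranged from -0.69 (glioma and progenitor) to 1.39 (erythrocytes). Over all symbols 1.77% were called higher and 3.52% lower. The summed TPM of 16 neuron markers ranged from 748 to 1110.0 in controls, 1262 to 2679 with anti-PD1, 473 to 1848 with vorinostat and 906 to 1554 with the combination, and no marker was at 0. None of 27 cell cycle markers passed with anti-PD1, at a median of -1.45, and their summed TPM ranged from 1364 to 1726 in controls, from 307 to 839 with anti-PD1, from 899 to 2045 with vorinostat and from 401 to 1553 with the combination. With the neuron marker mean in the model 0 members were called with anti-PD1, where 20 of 19390 symbols were called in all, and the member median was -0.25 against -0.04 for all symbols. That mean ranged from 4.89 to 5.35 in controls and from 5.59 to 6.58 with anti-PD1, without overlap. In this comparison the covariate thus goes with the group, and neuron content and treatment cannot be told apart. The part of cell makeup in the changes of the members was not tested.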

How the data were processed

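RNA of 15 mouse brain tumour samples was sequenced, and the library kit does not mark strand. The submitters' processing notes name HISAT2, StringTie, FastQC and DESeq2, and build mm10. The authors deposited 1 table of TPM values for 38172 symbols. Its name holds "adj", with no meaning stated in the labels. From these values 98.79% of 36472 uniquely annotated symbols came out as whole reads (within 0.01) when multiplied by the gene span with introns in GENCODE vM21, so TPM here is per span, and levels between genes were recomputed per exon length. Of 83 members 82 were annotated, 4 of them by an older symbol or by span.

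Groups follow the labels. Tests used limma 3.58.1 (R 4.3.3) with a trend on log2(TPM + 1) of 19390 symbols that reached 1 TPM in 3 or more libraries, all 15 libraries in 1 fit, two-sided, Benjamini-Hochberg at 0.05. The procedure was run on simulated data in which genes varied independently, unlike here, so that run does not show how sure the calls are. Alternatives were median-of-ratios scaling, TPM rescaled over protein-coding genes, a pseudocount of 0.1, no filter, only the 2 groups compared, the replicate number as a block, the neuron marker mean as a covariate, each library left out, and voom on recovered reads, plain and, chosen after seeing the data, with median-of-ratios scaling. Reads lack molecular identifiers.

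Members, lists, tests and named pairs were chosen with earlier results of these data known. Named genes are core subunits and isoform pairs by name, members with an adjusted p under 0.05 in a comparison or otherwise the 3 of smallest p in each direction, the highest of each complex, and 2 of smallest p per other list. 1 member named by this rule is not reported here. The ratios and Cox7c were chosen after their values were seen. The labels give groups the same replicate numbers without saying what they mean. Deviations of same-numbered anti-PD1 and combination libraries correlated at 0.20, 0.64, 0.43 and 0.29. Each other pair of groups had at least 1 correlation under 0.1, but also higher ones. Libraries numbered 3 correlated at 0.30 to 0.55 in every pair of groups. Differently numbered libraries were not compared, so a pairing of groups was not established. Motifs were searched in 250 bases before RefSeq starts (GRCm38.p6).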

Additional observations from a re-analysis of the deposited data

Results flagged for a closer look

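In 132 groups of 4 libraries, 8 had 1 library far from the other 3, and chance alone gives about 1 in 20, or 6.6. With anti-PD1, library 1 had 0.906 TPM of Cox4i2 (the others 1.16 to 1.20), library 4 had 106.1 TPM of Uqcrc1 (the others 111.1 to 111.7), and library 3 had 128.7 TPM of Ndufs8 (the others 114.9 to 117.2). Library 2 of anti-PD1 had a complex IV mean of 6.19 on the log2(TPM + 1) scale, where the others had 5.82 to 5.87. With vorinostat, library 3 had 47.7 TPM of Uqcrc2 (the others 59.0 to 60.1) and library 1 had 115.9 TPM of Atp5d (the others 96.5 to 98.1). In the combination, library 2 had 64.5 TPM of Cox5a (the others 50.8 to 52.9) and 126.2 TPM of Uqcrc1 (the others 104.8 to 107.9).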

How the results depend on the processing

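With anti-PD1 against control, where 11 members were called, 3 were called with median-of-ratios scaling, 3 with TPM rescaled over protein-coding genes, 0 with only the groups compared, 0 with the neuron covariate, 5 by voom and 2 by voom with median-of-ratios scaling. With a pseudocount of 0.1 it was 11, with no filter 10 and with the replicate block 14, which adds Cox7c, Ndufa2 and Ndufa4. Over all symbols 1026 were called beside the 11 members. In the order given, these settings called 839, 1417, 183, 20, 1584, 578, 891, 493 and 2621 of all symbols. Left-out libraries gave 0 to 30, with 0 without each control and without anti-PD1 2, 2 without anti-PD1 1, 30 without anti-PD1 3, 1 without anti-PD1 4, 3 without vorinostat 2, 18 without vorinostat 3, 3 without combination 1, 4 without combination 3 and 6 without combination 4. In the same order, from control 1 on, these fits called 0, 2, 11, 72, 155, 4982, 86, 316, 1940, 339, 595 and 636 of all symbols. Over 264 refits of the 11 called members the call was kept in 115 and lost in 149, and the direction turned in 0. In many of these refits the direction could not turn. The fit has 1 mean per group, so leaving out a vorinostat or combination library does not alter the anti-PD1 change. Neither does dropping the filter or fitting only the 2 groups.

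The member median of -0.134 became 0.047, -0.02, -0.253 and 0.046 with median-of-ratios scaling, protein-coding rescaling, the neuron covariate and scaled voom (left-out libraries -0.168 to -0.087). For the combination against anti-PD1 the median of 0.042 became -0.114, -0.061, 0.119 and -0.118 in the same order (0.015 to 0.062), and for anti-PD1 against vorinostat the median of -0.021 became 0.093, 0.071, -0.098 and 0.103 (-0.065 to 0.02). For the interaction the median of 0.168 became -0.059, 0.04, 0.266 and -0.059, and 0.101 by plain voom (0.119 to 0.202). For vorinostat against control -0.113 became -0.048 with median-of-ratios scaling and -0.047 by scaled voom (-0.146 to -0.077). The combination against control kept a negative median in every left-out fit (-0.141 to -0.083).

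Calls of 0 became 1 for the combination against vorinostat with the neuron covariate, 2 for anti-PD1 against vorinostat with the replicate block (Ndufa4l2 and Ndufc2, limma adjusted p = 0.0383 and 0.0368; left-out libraries 0 to 3), and up to 1 for the combination against anti-PD1 without 1 library. For the combination against vorinostat the neuron covariate called 7 of all symbols. For anti-PD1 against vorinostat the replicate block called 1061. The replicate block called 0 members in the combination against anti-PD1. Ndufb9 in that comparison turned to 0.033 with the neuron covariate. The cause was not tested. Over all symbols the 1026 calls with anti-PD1 (344 higher, 682 lower) were 839 (520 and 319) with median-of-ratios scaling and 1584 (369 and 1215) by voom.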
